A study of Mus musculus with 2 samples.

Results

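The genes described here are 9 genes of the interferon response: the signal transducer Stat2, the stimulated genes Isg15, Ifit1, Ifit3, Mx1, Oas1a and Usp18, and the cytosolic RNA sensors Ifih1 and Ddx58. They were chosen by symbol, and all 9 were found among the 43346 Ensembl gene rows of the deposited tables, of which 21474 were protein-coding. RNA was sequenced with paired ends in a single group of 2 libraries, biological replicates 1 and 2, from Mus musculus leukemia stem cells. The cells of both libraries carried Friend virus, a retrovirus that causes erythroleukemia, and were described as positive for CD34, CD133, Kit and Sca1. Adult animals of both sexes, aged 10 to 12 weeks, had been pooled, and the mice were Fv2-sensitive. There was no uninfected or untreated group, so levels are described and nothing was compared between conditions. The labels give the libraries separate biosamples and the same donor record, and their spread may therefore be technical in part.

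Type I interferon is secreted by cells that sense foreign nucleic acid, and its receptor activates the kinases JAK1 and TYK2, which phosphorylate STAT2. With IRF9 it forms part of a complex that switches on genes carrying an interferon-stimulated response element, a pair of GAAA words a short distance apart. The products include antiviral effectors, the RNA sensors themselves and inhibitors that end the response. In blood progenitors, interferon signalling is known to alter the growth of stem cells, and Sca1, a marker used in sorting these cells, is itself interferon-inducible.

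The libraries held 23575315 and 22541765 expected counts, which are the authors' estimated numbers of fragments. Globin genes took 11.0% of all TPM (a length-normalised share of all transcripts) in replicate 1 and 22.2% in replicate 2. All 11 erythroid markers examined reached 1 TPM in both libraries. Of the 4 sort markers, 2 did so, and Prom1, which encodes CD133, had 3 counts in replicate 1 and 0 in replicate 2.

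Of the 9 genes, 4 reached 1 TPM in both libraries: Isg15, Stat2, Oas1a and Ifih1. Over all protein-coding genes this share was 41.6%. Isg15, which encodes a ubiquitin-like modifier, was the most abundant of the 9 in each library, at 22.97 TPM in replicate 1 and 54.34 TPM in replicate 2 (38.7 ± 22.2, mean ± SD, n = 2). Stat2 had 13.9 and 14.5 TPM (14.2 ± 0.446), Oas1a 17.6 and 2.80 TPM (10.2 ± 10.5) and Ifih1 11.2 and 8.27 TPM (9.74 ± 2.07). In TPM Stat2 was thus nearly equal in the libraries, whereas Oas1a was high in replicate 1 and low in replicate 2. By the scaled counts used below, Stat2 was higher in replicate 2 (log2 ratio 0.54, 95% interval 0.42 to 0.66), though not past 2-fold. By mean level these 4 genes lay above 87.6%, 78.3%, 74.8% and 74.3% of protein-coding genes, in the order Isg15, Stat2, Oas1a and Ifih1. These levels are for whole genes. The coding transcripts of Ifih1 were estimated at 1.72 TPM in replicate 1 and 0.40 TPM in replicate 2.

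The other 5 genes were scarce. Usp18 had 1.48 TPM in replicate 1 and 0.25 TPM in replicate 2, and Ddx58 1.29 and 0.35 TPM, so both reached 1 TPM in replicate 1 alone. By the authors' posterior mean TPM, an alternative estimate, Ddx58 had 2.10 and 1.09 TPM and so reached 1 TPM in both. Ifit3 had 0.26 and 0.60 TPM, Mx1 0.36 and 0.11 TPM, and Ifit1 0.24 and 0.14 TPM. These values rest on few fragments: 12 and 7 for Ifit1, 8.25 and 19 for Ifit3, and 19 and 7 for Mx1. For Ifit1 the exact Poisson 95% interval of the count ran from 6.20 to 20.96 in replicate 1 and from 2.81 to 14.4 in replicate 2, so a difference between the libraries was not detectable at this depth. Such intervals cover counting error only. The range of Isg15 over the libraries lay above that of Stat2, and the range of Ifih1 lay above that of Usp18, which came next by mean level. Every other pair of neighbours in the order of mean levels (Stat2 and Oas1a, Oas1a and Ifih1, Usp18 and Ddx58, Ddx58 and Ifit3, Ifit3 and Mx1, Mx1 and Ifit1) had overlapping ranges.

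**Figure D1:**
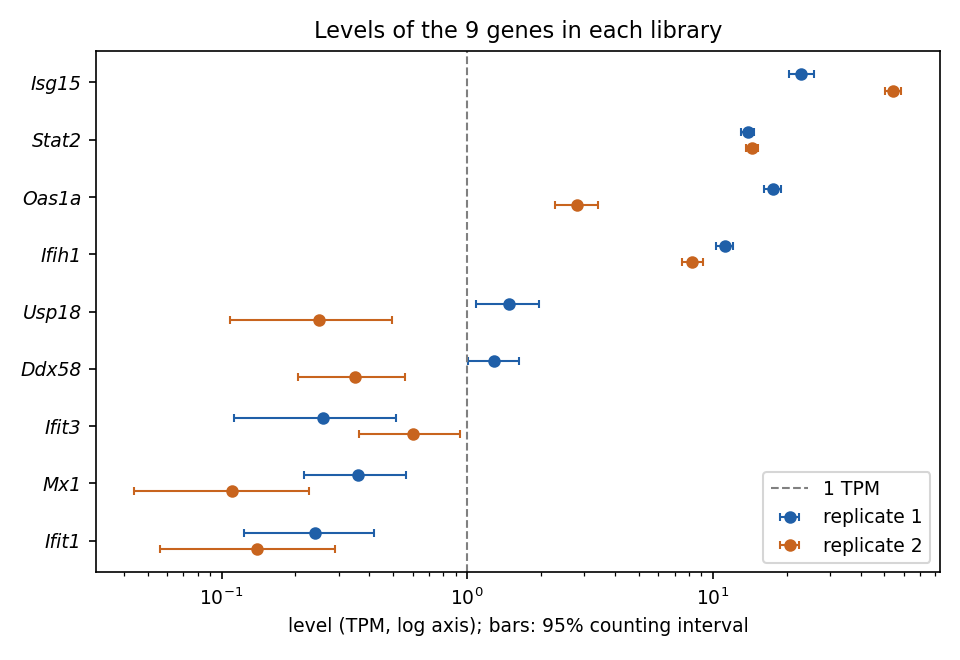
Level of each of the 9 genes in TPM on a log axis, with a point for each library and a bar for the 95% counting interval of its count. Isg15, Stat2, Oas1a and Ifih1 lie to the right of 1 TPM in both libraries, and Ifit1, Mx1 and Ifit3 lie to its left in both.

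Promoter sequence is shown to set the levels beside the element that the complex with STAT2 and IRF9 is known to bind. RefSeq promoters of the same assembly, from 250 bases before to 50 bases after the annotated start site, were found for 7 of the 9 genes, all but Mx1 and Usp18. The response element was searched as GAAA, any 2 bases and GAAA, on both strands, and matches were allowed to overlap each other. The stretches that hold the matches are shown on the strand of the gene, with the matched bases in capitals; a match to the opposite strand reads TTTC, 2 further bases and TTTC.
Isg15, chr4:156200865-156200906, minus strand: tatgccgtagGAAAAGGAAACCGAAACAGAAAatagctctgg
Oas1a, chr5:120907520-120907555, minus strand: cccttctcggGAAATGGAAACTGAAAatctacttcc
Stat2, chr10:128270266-128270295, plus strand: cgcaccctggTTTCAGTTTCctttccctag
Ifih1, chr2:62646206-62646233, minus strand: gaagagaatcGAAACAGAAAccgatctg
Ddx58, chr4:40239804-40239833, minus strand: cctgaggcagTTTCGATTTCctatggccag
Ifit3, chr19:34583363-34583426, plus strand: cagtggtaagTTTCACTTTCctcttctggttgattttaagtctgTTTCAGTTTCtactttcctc
Ifit1, chr19:34640775-34640823, plus strand: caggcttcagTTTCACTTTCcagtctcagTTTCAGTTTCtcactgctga

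All 7 promoters held a match, against 3.44% of the 32851 promoters in the table. Matches were also frequent in some of the pathway lists described below, which hold some of the members. They were found in 7 of 7 MX and other GTPase genes, 5 of 6 IFIT genes and 11 of 20 interferon ligand genes. By contrast, 1 of 11 receptor and JAK-STAT genes and 1 of 14 sensor adaptors and kinases had a match. These counts cover genes with a promoter in the table. Isg15 had 3 overlapping matches between 78 and 57 bases before the start site, Oas1a had 2 overlapping ones between 20 and 5 bases before it, and Ifit1 and Ifit3 had 2 separate ones each. Of all promoters, 0.225% had 2 or more. Stat2 had 1 match, 222 bases before the start site, while those of Ddx58 and Ifih1 began 2 and 32 bases after it. The scarce Ifit1 and Ifit3 thus carried as many matches as Oas1a. Among protein-coding genes at 1 TPM or more in both libraries that have a promoter in the table, 3.47% had a match. A second motif, TTCNNNGAA, the core of the element bound by STAT dimers, was present in 1 of the 7 promoters, that of Oas1a, and in 8.30% of all. A match is a description of the letters, and binding was not measured here.

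**Figure D2:**
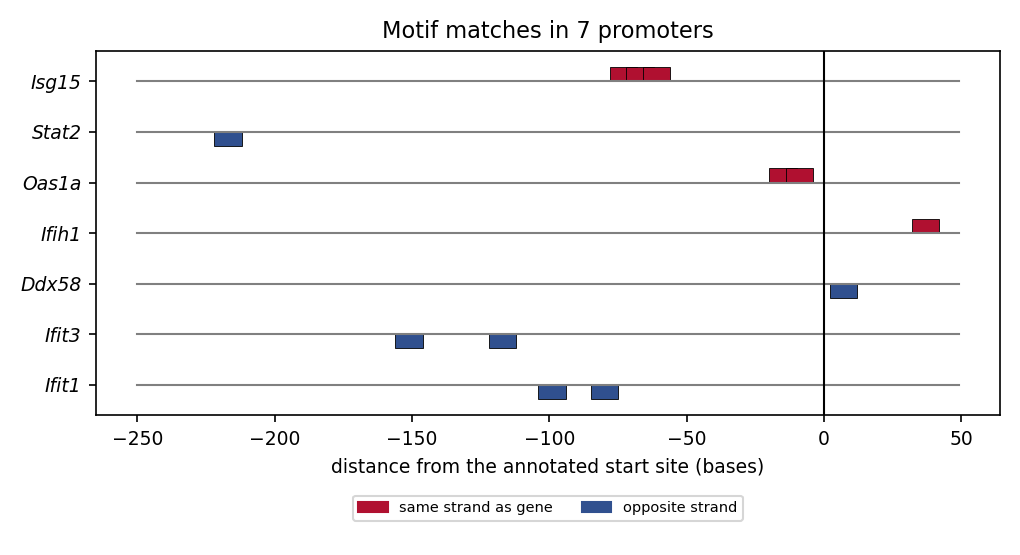
Positions of matches to GAAA, any 2 bases and GAAA in the 7 promoters, in bases from the annotated start site, which is at 0. Boxes above a line are on the strand of the gene and boxes below it on the opposite strand; rows are ordered by mean level, with Isg15 at the top.

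Next, the libraries were compared with each other for each gene. This describes 2 libraries, not conditions, and has no replicate check. The ratio used rounded expected counts with TMM scaling (a trimmed mean that sets library sizes), and a gene was counted as past 2-fold when the exact 95% binomial interval of its ratio lay wholly outside 2-fold. Of the 9 genes, 8 had the minimum of 20 counts in all; Ifit1 had fewer. Isg15 was higher in replicate 2, while Oas1a and Usp18 were higher in replicate 1. Thus 1 of 8 was past 2-fold toward replicate 2, where 8.36% of 11708 protein-coding genes were, and 2 of 8 toward replicate 1, where 14.9% were. With so few members these counts are near the background. With total-count scaling the background was 3.16% toward replicate 2 and 23.1% toward replicate 1, and with ratios of deposited TPM 3.9% and 23.6%. Under both, Ddx58 joined the genes higher in replicate 1, and the members past 2-fold were 1 and 3 of 8.

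Isg15 (ENSMUSG00000035692.6, chromosome 4, 156199424 to 156200818, minus strand) had 283 counts in replicate 1 and 664 in replicate 2. Its log2 ratio of replicate 2 over replicate 1 was 1.70 (95% interval 1.498 to 1.91), a ratio reached or exceeded by 3.66% of the genes tested. Its share of the summed TPM of the 9 genes was 33.2% in replicate 1 and 66.8% in replicate 2, while the sum itself was 69.2 and 81.4 TPM (75.3 ± 8.56). Among the words of 25 bases in the Isg15 transcript, 17.2% also occur in transcripts of other genes, mostly in the processed pseudogene AC151275.1, so some fragments may not be unique to it. These words, and those of the genes below, came from GENCODE M21 transcripts, whereas the counts rest on M4 models. Whether AC151275.1 was among the M4 models was not checked.

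Oas1a (ENSMUSG00000052776.10, chromosome 5, 120896256 to 120907521, minus strand) encodes an oligoadenylate synthetase, which makes an antiviral second messenger from ATP when it binds double-stranded RNA. It had 609 counts in replicate 1 and 97.0 in replicate 2, with a log2 ratio of −2.17 (−2.50 to −1.87). The neighbouring copy Oas1g holds 72.4% of the 25-base words of Oas1a, so the split of fragments between them is uncertain. Summed over the pair, the counts were 669 and 132 and the log2 ratio was −1.87 (−2.15 to −1.60), still past 2-fold; this sum was chosen after the values had been seen.

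Usp18 (ENSMUSG00000030107.9, chromosome 6, 121245906 to 121270917, plus strand) encodes the protease that removes ISG15 from its targets and also blocks the interferon receptor. It had 48 counts in replicate 1 and 8 in replicate 2, a log2 ratio of −2.04 (−3.41 to −1.02). The interval only just cleared 2-fold, and with DESeq2 size factors the ratio was −2.01 and Usp18 no longer passed. Isg15 and the enzyme that reverses its attachment therefore lay on opposite sides in these libraries. In the annotation 124 of 2790 exon bases of Usp18 overlap the antisense gene Gm44148, which is not in the deposited tables, and no strand setting of the counting is given in the sources used here.

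Stat2 (ENSMUSG00000040033.11, chromosome 10, 128270559 to 128292849, plus strand) had 1167 and 1224 counts and a log2 ratio of 0.54 (0.42 to 0.66). Its partner Irf9 differed more between the libraries, with 195 TPM in replicate 1 and 21.2 TPM in replicate 2. The log2 count ratio of Irf9 was −2.24 (−2.39 to −2.10), past 2-fold toward replicate 1. Its TPM differed more than its counts did, and the mean transcript length by which the authors divided differed too, at 922 and 1243 bases. Tyk2 had a ratio of −0.19 and was not past 2-fold.

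The sensor Ifih1 (ENSMUSG00000026896.10, chromosome 2, 62595798 to 62646255, minus strand) encodes MDA5, a helicase that binds long double-stranded RNA. It had 640 and 425 counts, with a log2 ratio of −0.12 (−0.30 to 0.06). Ddx58 (ENSMUSG00000040296.11, chromosome 4, 40203773 to 40239828, minus strand) encodes RIG-I, which binds RNA ends with a triphosphate. It had 72 and 17 counts and a ratio of −1.58 (−2.47 to −0.83), not past 2-fold with TMM scaling. Ifih1 was above Ddx58 in both libraries. Dhx58, of the same helicase family, which encodes the regulator LGP2, had 33.0 and 27.6 TPM.

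Ifit3 (ENSMUSG00000074896.3, chromosome 19, 34583531 to 34588731, plus strand) and Ifit1 (ENSMUSG00000034459.8, chromosome 19, 34640871 to 34650009, plus strand) encode proteins that bind viral RNA. The log2 ratio of Ifit3 was 1.67 (0.46 to 3.12), and it was not past 2-fold. Its copy Ifit3b holds 66.1% of its 25-base words. The authors' estimates gave Ifit3b 24.8 counts in replicate 1 and 0 in replicate 2. Summed over the pair, the counts were 33 and 19 and the log2 ratio −0.31 (−1.22 to 0.53). That interval spans 0, so the direction seen for Ifit3 alone was not kept and the pair shows none. Mx1 (ENSMUSG00000000386.10, chromosome 16, 97447035 to 97462907, minus strand), a GTPase against influenza-like viruses that is defective in most laboratory strains, had a ratio of −0.91 (−2.46 to 0.34).

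**Figure D3:**
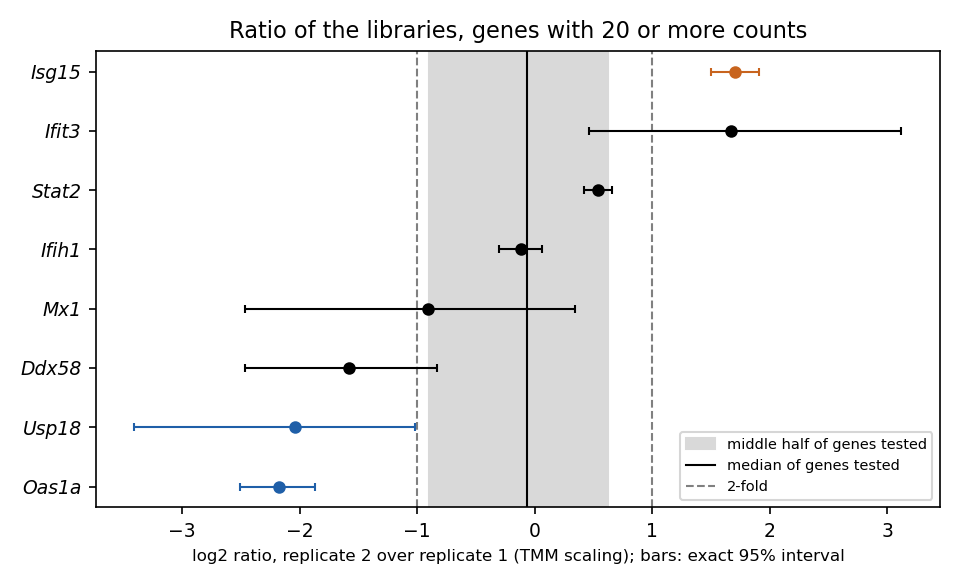
Log2 ratio of replicate 2 over replicate 1 for the 8 genes with 20 or more counts, with exact 95% intervals; the grey band is the middle range (25th to 75th percentile) and the black line the median of 11708 protein-coding genes. Isg15 lies beyond 2-fold on the right, Oas1a and Usp18 beyond it on the left.

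The transcript tables showed which forms of each gene the fragments were assigned to. These shares were estimated by the authors, and transcripts of a gene overlap, so most reads could belong to several. Among the 4 genes above 1 TPM on average, Stat2, Isg15, Oas1a and Ifih1, the leading transcript was shared between the libraries; Isg15, Oas1a and the scarcer Usp18, Ifit1 and Ifit3 have a single one, and Ddx58-209 led Ddx58 in both libraries by share of TPM. In Stat2, Stat2-201 made up 98.6% and 99.4% of the gene, but 63.9% and 57.1% by the posterior mean shares, since Stat2-202 is only 3 bases longer (4397 against 4394).

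Most of the Ifih1 signal was assigned to transcripts that do not encode the protein. The retained-intron transcript Ifih1-203 made up 55.3% of the gene in replicate 1 and 62.7% in replicate 2. The retained-intron transcript Ifih1-205 held 29.3% and 32.5%. The coding transcripts Ifih1-201 and Ifih1-202 together held 15.4% and 4.84%, or 16.6% and 5.25% by the posterior mean shares. In counts, the coding forms had 163 of 640 fragments in replicate 1 and 28.2 of 425 in replicate 2, and the retained-intron forms 477 and 397. The log2 count ratio was −2.04 for the coding forms and 0.20 for the retained-intron forms, so the gene total was similar where the coding forms were lower in replicate 2. Ifih1-201 had 127 counts in replicate 1 and 1.64 in replicate 2, while Ifih1-202 had 36 and 26.5. Whether the retained-intron reads came from unspliced RNA was not tested.

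**Figure D4:**
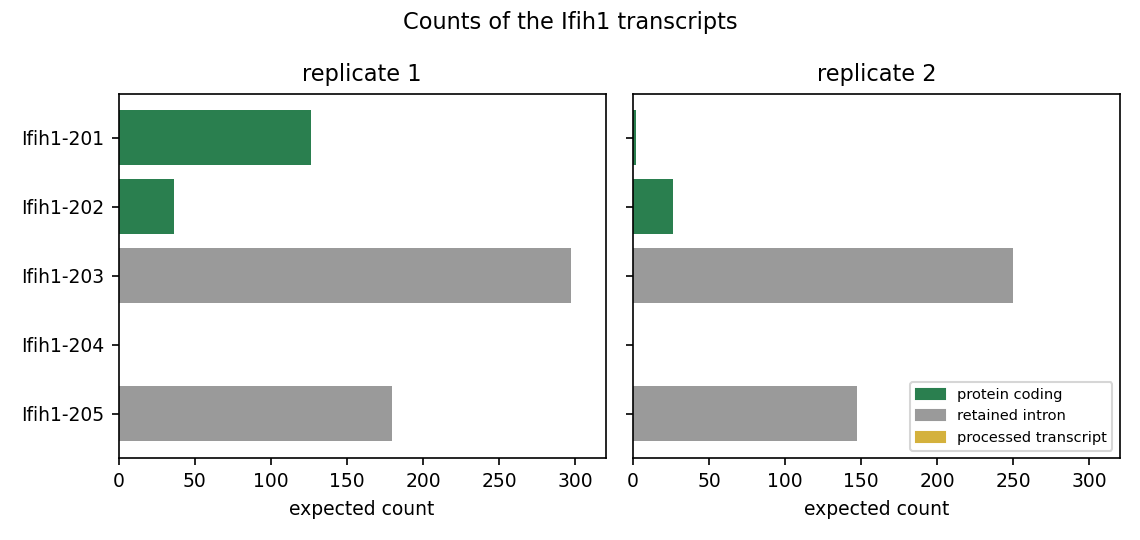
Expected counts of the 5 annotated Ifih1 transcripts in each library, coloured by annotated type. The retained-intron transcripts Ifih1-203 and Ifih1-205 have the longest bars in both libraries, and Ifih1-201 is near 0 in replicate 2.

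In Ddx58, the coding transcripts made up 73.0% of the gene in replicate 1 and 41.2% in replicate 2, on 50.1 and 5.75 counts. By the posterior mean the shares were 41.95% and 14.5%. In Mx1 all 19 counts of replicate 1 went to Mx1-205, which carries the annotation for nonsense-mediated decay, and all 7 of replicate 2 to the coding Mx1-201. At these counts the forms cannot be compared.

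The rest of the pathway was described from 10 lists with 158 matched genes, 149 of them besides the members. Of these 149, 86 (57.7%) reached 1 TPM in both libraries, beside 41.6% of all protein-coding genes. Of 114 with 20 or more counts, 7 (6.14%) were past 2-fold toward replicate 2 and 23 (20.2%) toward replicate 1, beside 8.36% and 14.9% of all genes tested. With total-count scaling the counts were 5 and 33, beside 3.16% and 23.1%. With TMM scaling their median log2 ratio was −0.30, beside −0.06 over all genes tested. The median of the 8 members was −0.51, and that of the 4 members with 100 or more counts was 0.21.

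None of the 21 interferon ligand genes, among them Ifnb1, the Ifna genes, Ifng and Ifnl2, had a single count in either library. Taking 3 counts as the limit that 0 counts allow, these genes could reach 0.114 to 0.359 TPM, depending on length. The receptor side was present: 12 of 13 receptor and JAK-STAT genes reached 1 TPM in both libraries, beside 41.6% of all protein-coding genes. Of the type I receptor chains, Ifnar1 had 5.79 ± 0.856 TPM and Ifnar2 57.2 ± 19.5 TPM. Jak1 had 411 ± 136 TPM, a value raised by short transcripts, since the mean length the authors used was 611 bases in replicate 1 and 499 in replicate 2. Ifngr2, a chain of the type II receptor, was past 2-fold toward replicate 2 (1.58).

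Sensors and adaptors were detected more often than not, at 10 of 15 and 13 of 15 genes, beside 41.6% of all protein-coding genes. Among sensors, Zc3hav1 had 25.4 ± 12.9 TPM and Tlr9, a DNA receptor of endosomes, 8.63 ± 3.73 TPM. Dhx9, a nuclear RNA helicase, was past 2-fold toward replicate 1 (−1.26), and Ddx60 was listed at 0 in both libraries. Mavs, the mitochondrial adaptor of Ifih1 and Ddx58, had 21.6 and 5.46 TPM and was past 2-fold toward replicate 1 (−1.47). Irf7, a factor that drives interferon genes, had 184 and 410 TPM and was past 2-fold toward replicate 2 (1.22), but not with total-count scaling. Of the 9 feedback inhibitors, 6 reached 1 TPM in both libraries. Past 2-fold were 2 toward replicate 2 and 3 toward replicate 1, where 8.36% and 14.9% of all genes tested were. The 3 toward replicate 1 were Usp18 and the scarce Pias1 (−1.80) and Ptpn2 (−1.87). Socs1 had 43.6 and 96.1 TPM and was past 2-fold toward replicate 2 (1.61). Pias4, an inhibitor of STAT proteins, had 87.2 and 180 TPM and was also past 2-fold toward replicate 2 (1.498), though not by the ratio of deposited TPM.

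In the ISG15 pathway 6 of 7 genes reached 1 TPM in both libraries, the exception being Usp18, beside 41.6% of all protein-coding genes. The activating enzyme gene Uba7 had 94.1 ± 28.4 TPM and the ligase gene Herc6 1.95 ± 0.396 TPM, neither past 2-fold. Ube2l6, the conjugating enzyme gene, had 20.1 TPM in replicate 1 and 3.20 TPM in replicate 2 (−2.20), past 2-fold in the direction opposite to Isg15.

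In the oligoadenylate synthetase group 6 of 15 genes (40.0%) reached 1 TPM in both libraries, near the 41.6% of all protein-coding genes. Oasl1 had 55.1 ± 26.4 TPM, from a mean transcript length of 702 and 822 bases, and Oas3 32.2 and 6.62 TPM (−1.503, past 2-fold toward replicate 1, as Oas1a was). Abce1, a factor of ribosome recycling, had 11.5 and 0.73 TPM (−3.50). The 6 IFIT genes were the lowest group after the ligands: none reached 1 TPM in either library, and their summed TPM was 1.87 and 0.79. Of 10 MX and other GTPase genes, 3 reached 1 TPM in both libraries. Igtp had the highest mean (8.39 ± 6.56 TPM), followed by Irgm1 (6.42 ± 4.44 TPM); Igtp was past 2-fold toward replicate 1 (−1.29), but not with DESeq2 size factors, and shares fragments with Irgm2.

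**Figure D5:**
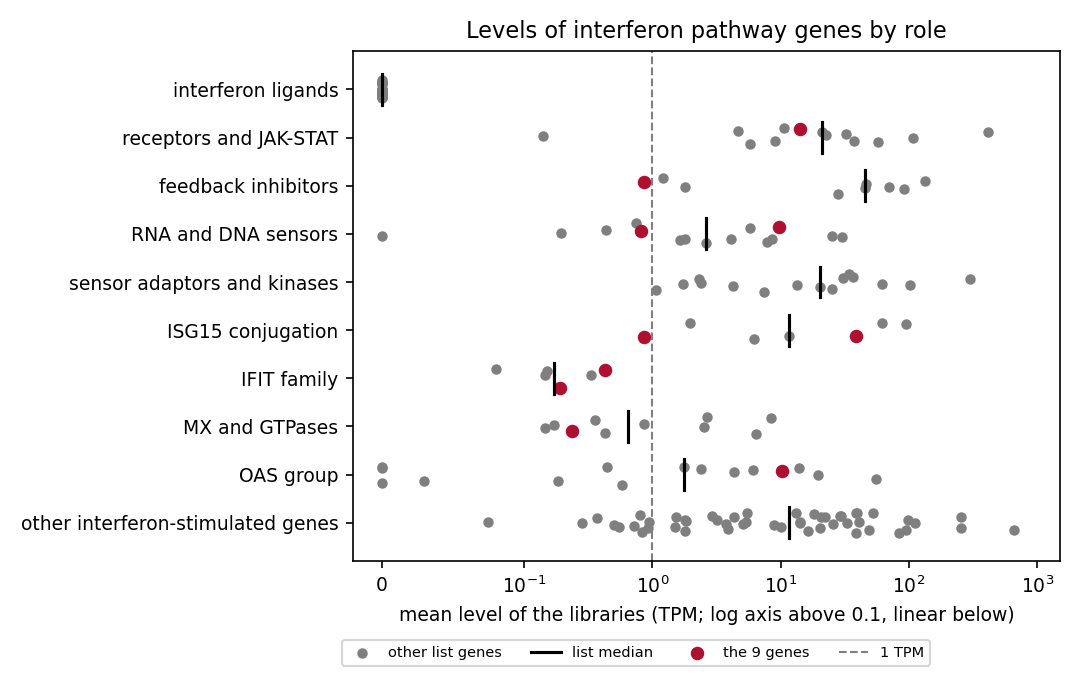
Mean level in TPM of the pathway genes in each list, on an axis that is logarithmic above 0.1 TPM and linear below, with the 9 genes in red and the list median as a black line. All ligand genes sit at 0, the IFIT family lies left of 1 TPM, and the receptor and adaptor lists lie mostly to its right.

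RNA of genes listed as markers of other cells was detected in both libraries. Such RNA alone does not show that those cells were present. Over all protein-coding genes, 41.6% reached 1 TPM in both libraries. Summed over each list in replicates 1 and 2, macrophage markers had 1040 and 1389 TPM (8 of 11 at 1 TPM in both), plasmacytoid dendritic markers 208 and 522 TPM (6 of 7), B cell markers 698 and 293 TPM (5 of 8), T and NK markers 159 and 129 TPM (5 of 8) and neutrophil markers 67.3 and 41.2 TPM (7 of 8). None of these genes had 0 counts in both libraries, and Vpreb1 and Klrb1c had 0 in replicate 1. Several were scarce. In replicates 1 and 2, Ncr1 had 0.48 and 0.11 TPM and Klrb1c 0 and 0.14 TPM. Vpreb1 had 0 and 0.08 TPM, and Igll1 0.02 and 0.45 TPM. The sums rest on a few abundant genes and do not give the direction of a list. Among the dendritic markers Irf8 alone had 115 and 427 TPM, on 6095 and 8034 counts and a mean length of 2818 and 1089 bases. Spib had 60.4 and 63.5 TPM, while Siglech had 2.71 and 3.34 TPM and Ccr9 0.87 and 0.94 TPM. Of the 7 dendritic markers, 0 were past 2-fold. Among the B cell markers Cd79a had 436 and 99.4 TPM. Of the 6 B cell markers with enough counts, 2 were past 2-fold toward replicate 1 and 0 toward replicate 2. Of 11 macrophage markers, 3 were past 2-fold toward replicate 1 and 1 toward replicate 2, while the sum, led by C1qa, C1qb and C1qc, was higher in replicate 2. Of 11 erythroid markers, 6 (54.5%) were past 2-fold toward replicate 1 and 1 toward replicate 2, with a median log2 ratio of −1.23. Over all genes tested these shares were 14.9% and 8.36%. The erythroid marker toward replicate 2 was the globin gene Hba-a1 (1.83), with 51056 TPM in replicate 1 and 133373 TPM in replicate 2. The summed TPM of the erythroid markers, which includes it, was 90181 in replicate 1 and 153981 in replicate 2, opposite to the median ratio. The part of these cells in the levels was not tested. In such bulk RNA, fewer cells of a type and less RNA per cell cannot be told apart.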

How the data were processed

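Each library had a gene and a transcript table on mm10 with GENCODE M4 models, per the readme deposited with them. Aligner and quantifier: not given in the sources used here. For each gene the authors deposited expected counts (estimated fragments that need not be whole), TPM and FPKM, and the percent of each transcript in its gene; FPKM and the authors' posterior mean TPM served as alternatives. Of 43346 Ensembl rows, 42462 matched GENCODE M21 by identifier, which gave symbols, types and mm10 positions.

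Expected counts were rounded to whole numbers. TMM factors came from edgeR 4.0.16 and alternative size factors from DESeq2 1.42.0 in R 4.3.3; with 1 group, no p-value was calculated. Ratios used a prior count of 0.5, a minimum of 20 counts and protein-coding genes; the ratio code was tested on simulated data. The summed counts of the libraries were similar, but the effective library sizes after TMM were 27139355 and 19581474. Intervals are at 95%.

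The members and lists were chosen with earlier results of these data known. Named genes are the 9 members, up to 4 most abundant genes of a list, those listed at 0, and those past 2-fold at a mean of 5 TPM or more; Ifnar1, Herc6, Tyk2, Ifit3b, Oas1g, Pias1, Ptpn2 and the single marker genes were added after their values had been seen. Of 215 list genes, 214 were matched; the remaining one is not analysed here. Some genes of the lists are not reported here by name. Promoters are from RefSeq (GRCm38.p6). Python 3.11.15, pandas 2.3.3, scipy 1.17.1 and matplotlib 3.10.9 were used.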

Additional observations from a re-analysis of the deposited data

How the results depend on the processing

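Genes under 20 counts in all were given no ratio, and every ratio rests on 1 library a side. The count of members at 1 TPM or more in both libraries stayed within 1.5 times its value of 4 under all 7 alternatives run (other minimums, FPKM, posterior mean TPM, nuclear coding TPM and each library alone). It was 4 in replicate 2 alone, 6 in replicate 1 alone and 5 by posterior mean TPM, which added Ddx58. The count of pathway genes, 90, was 90 without replicate 1 and 110 without replicate 2. The count of members past 2-fold and that of shared leading transcripts also stayed within 1.5 times. The summed TPM of the 9 genes moved from 75.3 to 105 when TPM were rescaled to nuclear protein-coding genes without globins, and was 81.4 without replicate 1 and 69.2 without replicate 2. The median log2 ratio of the members, −0.51, was −0.92 with total-count scaling, −1.07 with ratios of deposited TPM, −0.27 with no count filter, −0.32 with a prior count of 5 and, in the opposite direction, 0.21 among the 4 members with 100 or more counts, since the filter leaves out 4 members; it was therefore not used to give the members a direction. With DESeq2 size factors Usp18 no longer passed 2-fold (−2.01), nor did Igtp and Helz2, and Ddx58 did so with total-count scaling (−1.99) and TPM ratios (−1.88). No paired analysis was possible because there is 1 group.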

Other observations

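Genes of a further list of interferon-stimulated genes, which shares Uba7 with the ISG15 pathway, were mostly present. Some reached far higher levels than the 9 genes. The median of the list was 11.6 TPM, below the mean levels of Isg15 and Stat2. Others were scarce in replicates 1 and 2, such as Ifi44 (1.00 and 0 TPM) and Cxcl10 (0 and 0.74 TPM), both picked with their values in view. Of 50 such genes, 36 reached 1 TPM in both libraries, beside 41.6% of all protein-coding genes. Shisa5, a p53-responsive death gene, had 661 ± 167 TPM, Ly6e, a surface protein of the Sca1 family, 256 ± 134 TPM, and Bst2, which encodes the virus tether tetherin, 111 ± 42.3 TPM. Pml, which encodes the scaffold of nuclear PML bodies, had 425 TPM in replicate 1 and 86.9 TPM in replicate 2 (log2 count ratio −1.73, 95% interval −1.80 to −1.66). The exonuclease gene Isg20 had 94.7 and 72.1 TPM, and Rsad2, which encodes the antiviral enzyme viperin, 20.6 and 20.9 TPM; both were picked with their values in view.

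Of 47 with 20 or more counts, 2 (4.26%) were past 2-fold toward replicate 2, Epsti1 (2.24) and Bst2 (1.26), beside 8.36% of all genes tested. Toward replicate 1 there were 7 (14.9%), the same share as over all genes tested, among them Helz2 (−1.09; neither by the ratio of deposited TPM nor with DESeq2 size factors), which encodes a nuclear receptor coactivator, Ifitm2 (−2.05), a membrane protein gene against virus entry, and Ifitm1 (−2.41). With total-count scaling Bst2 did not pass and 14 genes were past 2-fold toward replicate 1, beside 23.1% of all genes tested.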
